A study of Mus musculus with 8 samples.

Results

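The 10 genes described here are 6 transcription factor genes that steer the formation of fat cells (Pparg, Cebpa, Cebpb, Cebpd, Ebf1 and Ebf2) and 4 genes of fatty acid handling (Fabp4, Fabp5, Lpl and Cd36). All 10 were measured, among 19938 genes in all. Each was read as the probe set named for that gene alone, and Fabp5, which had 2, was read by the brighter one. The genes were chosen by their roles and by measured values of these arrays, since the site difference of Pparg and the model differences of Fabp5, Ebf1 and Lpl were already known. Differences by site and by model are therefore given as descriptions, and tests are given for Rb genotype and for the interplay of site and model, which did not guide the choice.

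RNA came from 8 primary osteosarcomas, malignant tumours of bone-forming cells, of C57Bl6 mice, with 1 array per tumour. The 4 shRNA OS tumours carried the hairpin P53.1224, a transgenic short hairpin RNA against p53: replicates 1 and 3 were tibial and Rbfl/+, replicate 2 was tibial and Rb+/+, and replicate 4 was from the humerus and Rbfl/+. The 4 Cre:lox OS tumours were P53fl/fl, with floxed p53 alleles: replicate 1 was from the scapula and Rb+/+, replicate 2 from the humerus and Rbfl/+, and replicates 3 and 4 were tibial and Rbfl/+. All groups thus carry an alteration aimed at p53, by a hairpin against its transcript or by floxed alleles, and no normal bone or fat is included. The sources used here give neither the age of the mice nor the promoter that drives the hairpin or the Cre. Values are log2 expression, 1 unit being a doubling, and the array medians lay between 7.13 and 7.23. One array was less like the rest: shRNA OS replicate 2 correlated with the other 7 at 0.941 on average, and the remaining arrays did so at 0.961 to 0.968. The arrays also differed in spread. The interquartile range was 2.59 in shRNA OS replicate 2 and 2.79 in Cre:lox OS replicate 3, and 2.95 to 3.19 in the others. Dim and bright genes may therefore not be fully comparable between arrays.

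Fat cells and bone-forming cells both arise from mesenchymal stromal cells of the marrow. In the fat lineage, Cebpb and Cebpd act early and switch on Pparg and Cebpa, which then maintain each other, while Ebf1 and Ebf2 act in the precursor cells. Pparg encodes a nuclear receptor that binds DNA together with a retinoid X receptor and turns on genes of lipid uptake and storage, Fabp4, Lpl and Cd36 among them. Several of these genes also work outside fat: Pparg, Fabp4, Fabp5, Cd36 and Lpl in macrophages, Fabp4 and Cd36 in capillary endothelium, Ebf1 in B cells, and Pparg in osteoclast precursors.

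Pparg has alternative promoters, and its isoform most restricted to fat starts at a downstream one. RefSeq promoter sequences (GRCm38.p6) were available here for 5 of the 10 genes, with 3 starts for Pparg. The 250 bases before its most upstream start (chr6:115360894-115361143, plus strand) and its most downstream start (chr6:115421816-115422065, plus strand) are shown because the Pparg probe set gives 1 value per tumour and does not separate the starts. Capitals mark the C/EBP-like motif TTGCNNAA and the nuclear receptor core AGGTCA, searched on both strands.
Pparg upstream: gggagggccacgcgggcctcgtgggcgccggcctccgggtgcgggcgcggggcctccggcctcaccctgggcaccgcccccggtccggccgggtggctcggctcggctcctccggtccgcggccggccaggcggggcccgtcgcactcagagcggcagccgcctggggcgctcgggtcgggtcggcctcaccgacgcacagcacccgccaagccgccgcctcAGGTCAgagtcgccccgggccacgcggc
Pparg downstream: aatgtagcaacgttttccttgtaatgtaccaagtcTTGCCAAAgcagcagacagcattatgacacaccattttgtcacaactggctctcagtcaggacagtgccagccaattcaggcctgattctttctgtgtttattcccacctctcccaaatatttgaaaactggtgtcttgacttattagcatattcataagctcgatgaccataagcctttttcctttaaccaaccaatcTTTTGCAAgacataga
The upstream window held 1 AGGTCA and no TTGCNNAA. The downstream window held 2 matches to TTGCNNAA that do not overlap, and no AGGTCA. Among all 32851 promoter windows of this length, 9.56% held TTGCNNAA and 14% held AGGTCA. A direct repeat, 2 copies of AGGTCA separated by 1 base, is the form bound by PPAR with a retinoid X receptor. It was in 0.0335% of all windows, and an EBF-like motif, TCCC and GGGA separated by 2 bases, was in 0.779%. Neither was in a window of the 5 genes.

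Pparg separated the tumours by bone, and its values overlapped between the p53 models. In the tibia, shRNA OS replicates 1 to 3 had 8.77, 8.24 and 8.36, and replicates 3 and 4 of Cre:lox OS had 7.89 and 8.45. The humerus tumours stood at 9.98 (shRNA OS replicate 4) and 9.77 (Cre:lox OS replicate 2), and the scapula tumour at 9.31. All 5 tibial values lay below all 3 others, with a gap of 0.54 between the groups. The means were 8.34 ± 0.32 in tibial tumours (SD, n = 5) and 9.69 ± 0.34 in humerus and scapula tumours (SD, n = 3). With the model as a covariate the tibial difference was -1.44 (SE 0.21), and it was -1.52 within shRNA OS (3 tumours against 1) and -1.37 within Cre:lox OS (2 against 2). Between the models Pparg differed by -0.02 (SE 0.47), with 8.84 ± 0.80 in shRNA OS and 8.85 ± 0.85 in Cre:lox OS (SD, n = 4 each). The models hold different numbers of tibial tumours, and with site as a covariate this difference was 0.34 (SE 0.20). It was 0.29 within tibial tumours, 0.44 outside the tibia and 0.33 within Rbfl/+ tumours.

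**Figure D1:**
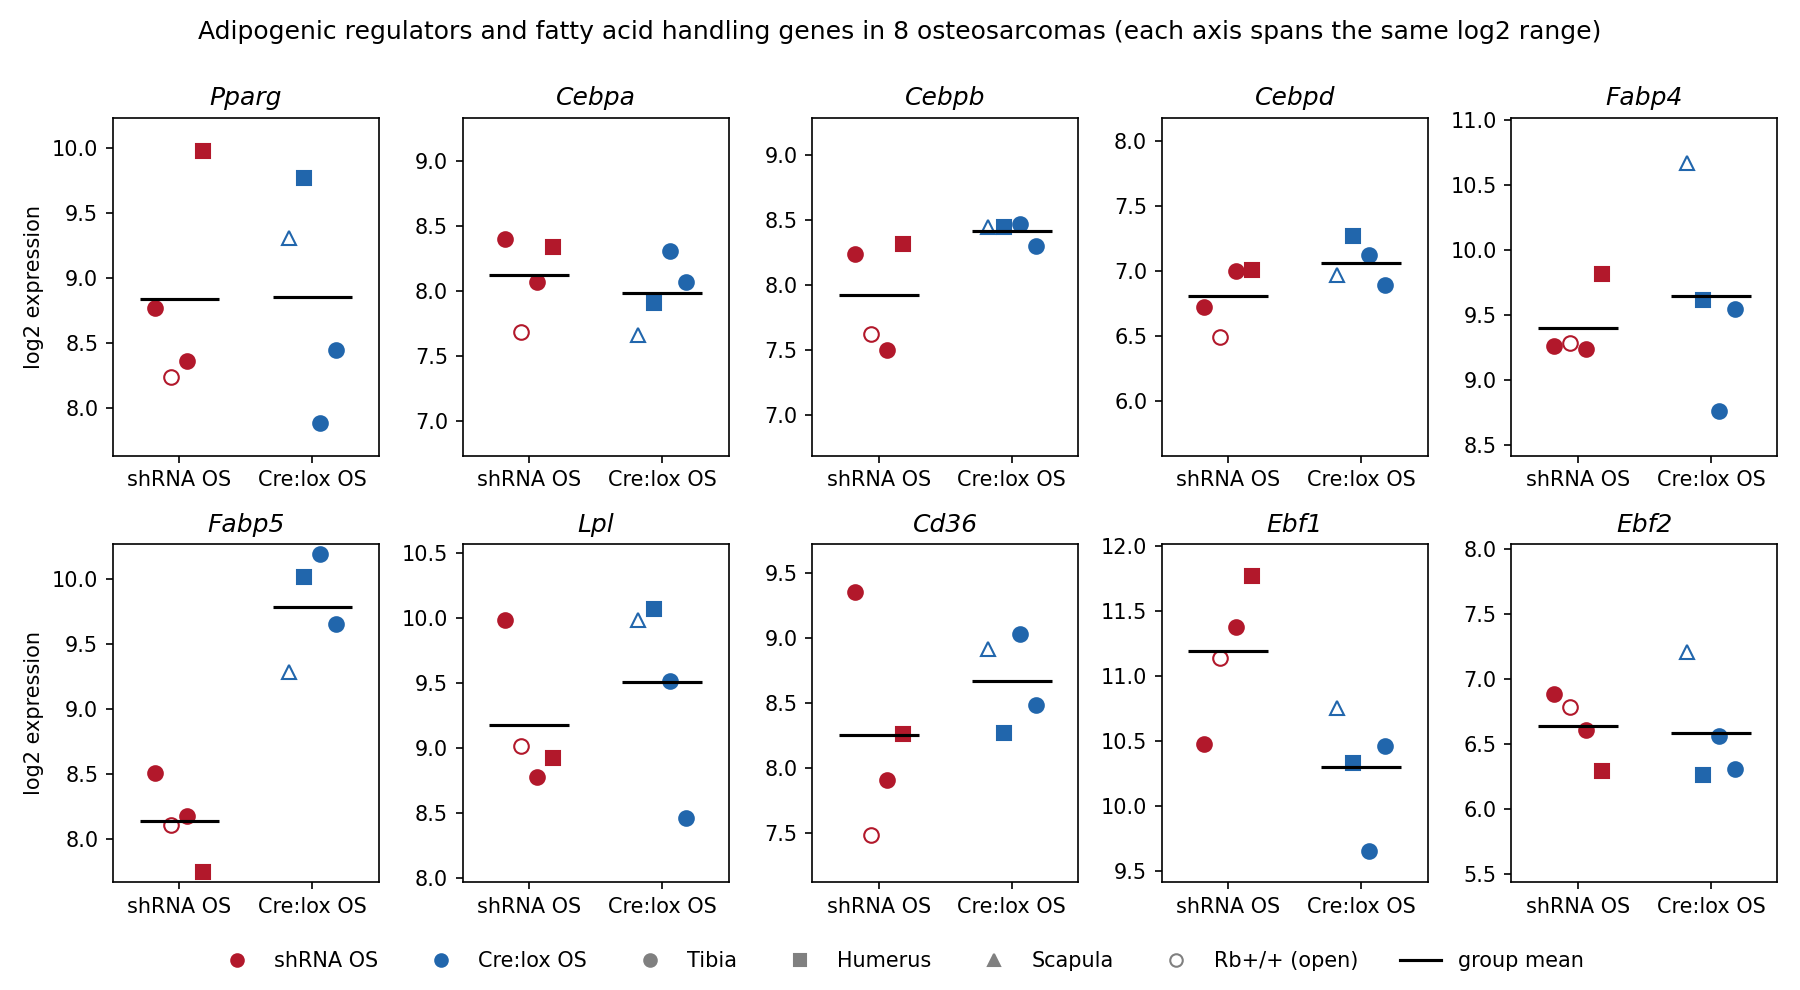
Log2 expression of the 10 genes in 4 shRNA OS tumours (red, left) and 4 Cre:lox OS tumours (blue, right), 1 point per tumour, with the symbol giving the bone, open symbols Rb+/+ tumours and bars the mean of each model. Pparg is high in the humerus and scapula tumours of both models (9.31 to 9.98) and Fabp5 is low in every shRNA OS tumour (7.74 to 8.50).

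The C/EBP genes varied less. Cebpa, whose product sustains the mature fat cell state and also granulocyte maturation, spanned 0.74 over the 8 tumours, between 7.67 and 8.40, and overlapped by model and by site. Cebpb, an early factor that is also induced by inflammatory signals, was 8.24, 7.62, 7.50 and 8.32 in the shRNA OS tumours (replicates 1 to 4, as in each such list), against 8.45, 8.45, 8.47 and 8.30 in the Cre:lox OS tumours. The Cre:lox OS values sat close together, while shRNA OS replicates 2 and 3 lay well below them and replicates 1 and 4 just below or among them. The model difference was -0.50 (SE 0.20). The overlap rested on shRNA OS replicate 4 and Cre:lox OS replicate 4, and without either of them the models did not overlap. Cebpd, which works beside Cebpb, ran from 6.49 to 7.01 in shRNA OS and from 6.90 to 7.27 in Cre:lox OS (difference -0.26, SE 0.16). It was above the array median in 1 tumour only. By site the differences were 0.11 for Cebpa, -0.26 for Cebpb and -0.18 for Cebpd, with SEs between 0.17 and 0.22. Without shRNA OS replicate 4, the only humerus tumour of its model, they were 0.40 for Cebpa, -0.06 for Cebpb and -0.11 for Cebpd.

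Ebf1, a factor of B cells and fat cell precursors, was 10.47, 11.13, 11.37 and 11.76 in the shRNA OS tumours, against 10.75, 10.33, 9.66 and 10.46 in the Cre:lox OS tumours. Replicates 2 to 4 of shRNA OS exceeded every Cre:lox OS tumour, and shRNA OS replicate 1 fell among them. The model difference was 0.89 (SE 0.30), and it was 0.94 within tibial tumours and 1.06 within Rbfl/+ tumours. The humerus tumour of shRNA OS had the highest value, and a tibial Cre:lox OS tumour the lowest. Tibial tumours averaged 10.62 ± 0.67 (SD, n = 5), against 10.95 ± 0.74 in humerus and scapula tumours (SD, n = 3), and with the model as a covariate the difference was -0.61 (SE 0.27). Ebf2 marks brown fat precursors and is also active in immature bone-forming cells. It stayed between 6.26 and 7.21, with 7 of the 8 tumours below 7 and the scapula tumour at the top. Only in that tumour was it above the array median. Its differences were 0.06 by model (SE 0.23) and 0.03 by site (SE 0.26), and each took either sign when single tumours were left out.

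Among the genes of fatty acid handling, Fabp4 followed Pparg by site. Fabp4 encodes the fatty acid carrier best known from fat cells. In tibial tumours it was 9.26, 9.29 and 9.24 (shRNA OS replicates 1 to 3) and 8.76 and 9.54 (Cre:lox OS replicates 3 and 4). In the humerus it was 9.81 (shRNA OS replicate 4) and 9.62 (Cre:lox OS replicate 2), and in the scapula tumour 10.67. No tibial value reached the others, but the gap was 0.07, and the scapula tumour alone stood far above. With the model as a covariate the tibial difference was -0.80 (SE 0.28), ranging from -1.004 to -0.51 when 1 tumour at a time was left out. The lowest size of that range was without the scapula tumour. By model the difference was -0.25 (SE 0.35), but -0.05 (SE 0.27) with site as a covariate. It was 0.11 within tibial tumours, 0.13 within Rbfl/+ tumours and 0.09 without the scapula tumour.

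Fabp5 separated the tumours by p53 model, and its values overlapped between bones. It encodes the epidermal-type fatty acid carrier, which many tumours and macrophages also make. It was 8.50, 8.11, 8.18 and 7.74 in the shRNA OS tumours, against 9.28, 10.02, 10.19 and 9.65 in the Cre:lox OS tumours. Every shRNA OS tumour lay below every Cre:lox OS tumour, with a gap of 0.78. The means were 8.13 ± 0.31 in shRNA OS and 9.78 ± 0.40 in Cre:lox OS (SD, n = 4 each), a difference of -1.65 (SE 0.23). It was -1.65 within tibial tumours, -1.91 outside the tibia and -1.81 within Rbfl/+ tumours. The other Fabp5 probe set gave a model difference of -1.64, and the probe sets had a correlation of 0.999 over the 8 tumours. Fabp5 has pseudogene copies, so which copies the probes read is uncertain. By site, the difference was 0.38 (SE 0.22) with the model as a covariate, and -0.09 without it.

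Lpl and Cd36 separated neither models nor sites. Lpl encodes the lipase that frees fatty acids from circulating lipoproteins. It was 9.98, 9.01, 8.78 and 8.93 in the shRNA OS tumours, against 9.98, 10.07, 9.52 and 8.46 in the Cre:lox OS tumours. Both models held tumours near 10 and tumours below 9. Cd36, a fatty acid and lipoprotein receptor at the cell surface, was 9.36, 7.49, 7.91 and 8.27 in the shRNA OS tumours, against 8.92, 8.27, 9.03 and 8.48 in the Cre:lox OS tumours. Its highest and lowest values were both in tibial shRNA OS tumours. The model differences were -0.33 (SE 0.38) for Lpl and -0.42 (SE 0.36) for Cd36, and the site differences were -0.45 (SE 0.39) for Lpl and 0.09 (SE 0.40) for Cd36. These values depended on single tumours. By model, Lpl differed by -0.68 without Cre:lox OS replicate 4 and by -0.15 without Cre:lox OS replicate 2, and its difference within tibial tumours was 0.27. By site, Lpl differed by -1.04 without shRNA OS replicate 4 and by -0.06 without Cre:lox OS replicate 4. Cd36 differed by model by -0.79 without shRNA OS replicate 1 and by -0.16 without shRNA OS replicate 2. Leaving out the same tumours gave -0.13 and 0.25 for Cd36 by site.

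**Figure D2:**
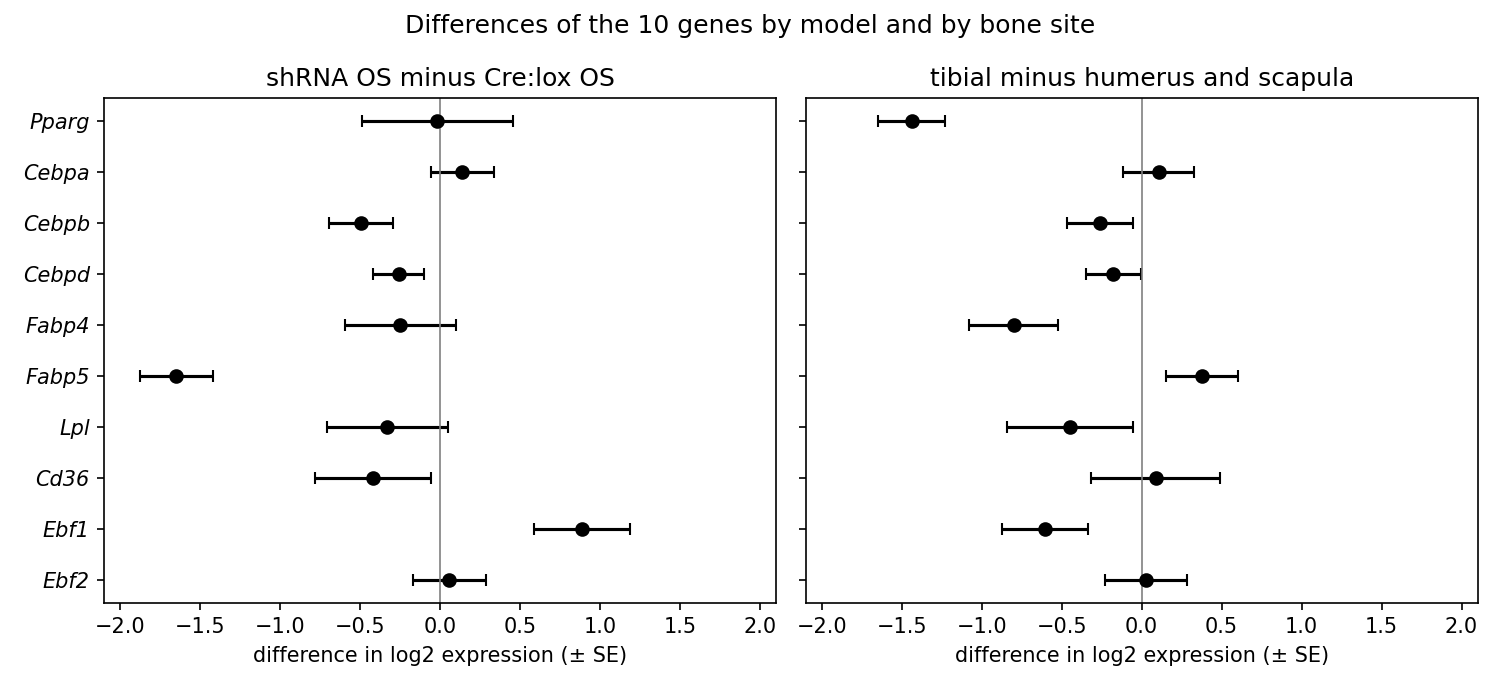
Differences in log2 expression of the 10 genes, with limma's moderated SE as bars, for shRNA OS minus Cre:lox OS (left) and for tibial minus humerus and scapula tumours with the model as a covariate (right). Fabp5 (-1.65) stands out by model, and Pparg (-1.44) and Fabp4 (-0.80) by site.

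Set beside all genes, the models did not overlap for 1 of the 10 genes, Fabp5, where 5.44% of all genes did so. The sites did not overlap for 2 of the 10, Pparg and Fabp4, where the share over all genes was 2.6%. In limma's test with Benjamini-Hochberg adjustment over all 19938 genes, no member passed 0.05 by model, where 0.0201% of all genes did, or by site, where 0% did. An unadjusted p under 0.05 was reached by 3 members by model (Cebpb, Fabp5 and Ebf1), beside 9.63% of all genes, and by 2 by site (Pparg and Fabp4), beside 5.64%. The median difference of the 10 genes was -0.25 by model, beside 0.01 over all genes, and -0.22 by site, beside -0.03. Because the genes were picked with these comparisons known, nothing is read from these counts and tests.

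Rb genotype was tested with the model as a covariate, in 6 Rbfl/+ tumours against 2 that were Rb+/+. No member passed limma's adjusted test, as for 0% of all genes, and 2 members had an unadjusted p under 0.05, beside 4.73% of all genes. Cebpa had values of 7.91 at the lowest, 8.19 at the median and 8.40 at the highest in Rbfl/+ tumours, against 7.69 and 7.67 in the Rb+/+ tumours of shRNA OS and Cre:lox OS. These groups did not overlap, which held for 4.63% of all genes, and the difference was 0.51 (SE 0.17, limma adjusted p = 0.836). Ebf2 ran from 6.26 to 6.88 with a median of 6.43 in Rbfl/+ tumours, against 6.78 and 7.21 in Rb+/+ tumours. Its difference was -0.51 (SE 0.22, limma adjusted p = 0.836). The Rb+/+ tumours include shRNA OS replicate 2, whose array was less like the rest, and the only scapula tumour.

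Whether the site difference itself differed between the models was tested as an interaction. For every gene this rests on 1 shRNA OS tumour outside the tibia, which has no spread of its own and is assumed to vary like the other groups. No member passed limma's adjusted test and none had an unadjusted p under 0.05, where 0% and 2.86% of all genes did so. For Pparg the site difference in shRNA OS minus that in Cre:lox OS was -0.15 (SE 0.45, limma adjusted p = 1). Lpl had the largest estimate, 1.37 (SE 0.69, limma adjusted p = 1). Its tibial tumours differed by 0.33 from the humerus tumour in shRNA OS and by -1.04 from the humerus and scapula tumours in Cre:lox OS.

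The 10 genes did not move as a block across tumours. Over the 45 pairs, Pearson's r across the 8 tumours ran from -0.89 to 0.71 with a median of 0.24, and 18 pairs were below 0. These are descriptions, since the tumours share models and sites. The highest was that of Cebpb and Cd36 (r = 0.71), followed by Pparg and Fabp4 (r = 0.66). The lowest was that of Fabp5 and Ebf1 (r = -0.89), which go opposite ways by model. After each model's mean was removed it was -0.90, and that of Pparg and Fabp4 was 0.68. After the same step Cebpb and Fabp5 had r = -0.03, against 0.64 before it. Pparg and its target Cd36 had r = 0.01.

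**Figure D3:**
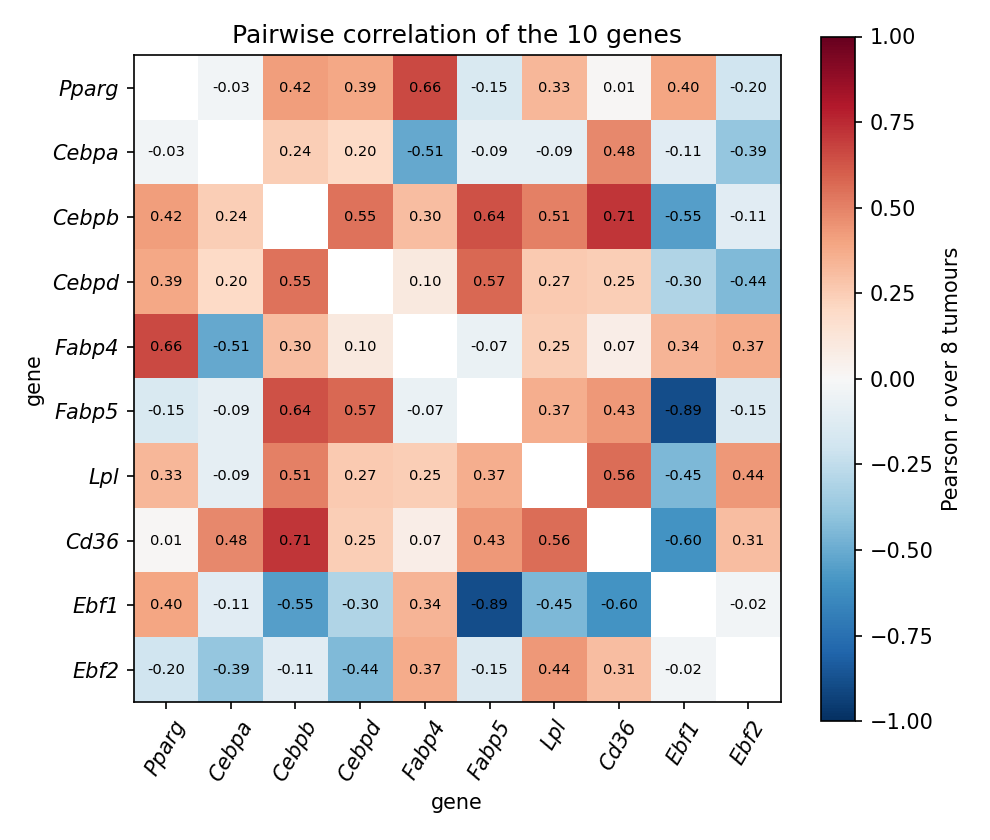
Pearson correlation of log2 expression for each pair of the 10 genes over the 8 tumours, with red for positive and blue for negative values. Pparg and Fabp4 (0.66) and Cebpb and Cd36 (0.71) are among the highest, and Fabp5 and Ebf1 (-0.89) are the lowest.

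Among 18693 genes ranked by correlation with each gene over the 8 tumours, those most like Pparg were Prpf38b (0.988), Vars2 (0.966), Olfr1199 (0.953), Foxo6 (0.945) and Strn (0.944). In all 5 every tibial value was below those of the other sites, with differences between -0.43 and -0.15. Olfr1199, an olfactory receptor gene, stayed between 3.55 and 3.84, far below the array medians. Those most like Fabp5 were Pfn2 (0.986), Tpi1 (0.982), Plin2 (0.979), Prokr1 (0.977) and Tmem141 (0.973), and in all 5 every shRNA OS value lay below every Cre:lox OS value. Genes picked for so close a correlation with Pparg or Fabp5 take over their separation by site or model, so it is no further result. Tpi1 encodes a glycolytic enzyme and Plin2 a coat protein of lipid droplets. Those most like Ebf1 were Flt4 (0.981), Epas1 (0.976), Il10 (0.973), Btla (0.968) and Kcnq1 (0.968). Flt4, a lymphatic and endothelial growth factor receptor, was 7.90, 9.05, 9.10 and 9.36 in the shRNA OS tumours, against 8.21, 7.59, 6.88 and 8.10 in the Cre:lox OS tumours.

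In the order of the reference annotation, the 5 measured genes on either side of Fabp5 differed by -0.60 to 0.46 between models, with a median of -0.07. They include its family members Fabp9 (0.09), Fabp4 (-0.25) and Fabp12 (-0.05). Around Pparg the 10 neighbours differed by -1.33 to 0.19 by site, with a median of -0.08. The largest was its neighbour Timp4, a metalloproteinase inhibitor named here after its values were seen, and 1 tumour set it. Timp4 was 8.99 in shRNA OS replicate 4, from the humerus, and between 5.47 and 6.16 in the other 7 tumours.

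**Figure D4:**
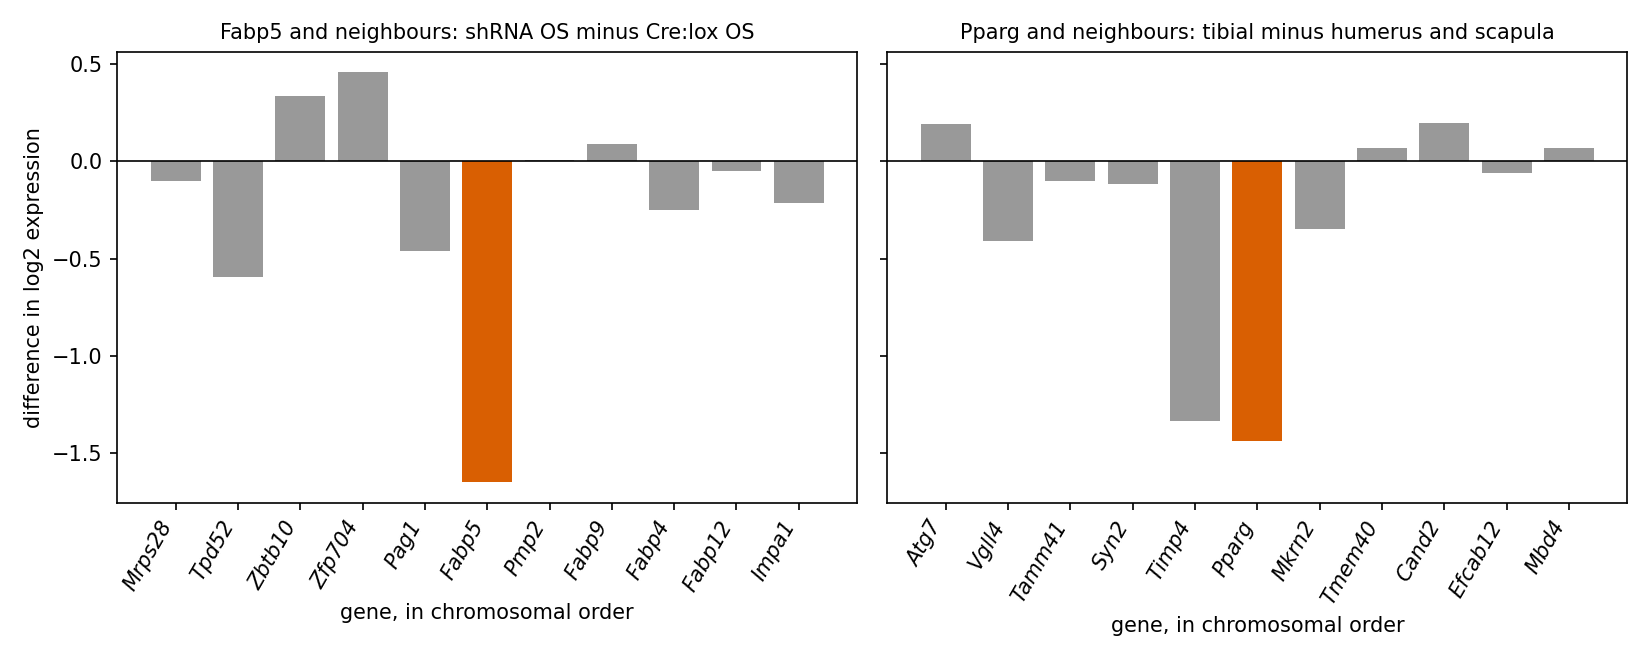
Differences in log2 expression of Fabp5 (left, shRNA OS minus Cre:lox OS) and Pparg (right, tibial minus humerus and scapula) in orange, with 5 measured genes on either side in grey, in chromosomal order. Neighbours of Fabp5 stay between -0.60 and 0.46, and beside Pparg only Timp4 (-1.33) is of similar size.

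Of the relatives of the 10 genes in their families, only Fabp2 separated the sites (0.39 by site) and none separated the models. Fabp2 was highest in Cre:lox OS replicate 3 (5.38) and shRNA OS replicate 2 (5.13), the arrays of narrowest spread. The other nuclear receptors of the pathway, Ppara, Ppard, Rxra, Rxrb and Rxrg, overlapped by model and by site. Their model differences ran from -0.47 (Rxrg, SE 0.41) to 0.04 (Rxrb), and their site differences from -0.52 (Rxrg) to 0.12 (Ppard). Among other C/EBP genes, Cebpe (-0.08), Cebpg (0.13) and Ddit3 (-0.13) differed little by model. Ebf3 was 0.53 higher on average in shRNA OS (SE 0.35) and Ebf4 0.06. Within the carrier family, Fabp1, Fabp2, Fabp6, Fabp9 and Fabp12 were below the array median in every tumour. Fabp3, the heart and muscle carrier, ran from 8.24 to 9.53 in shRNA OS and from 8.44 to 10.35 in Cre:lox OS (difference -0.53, SE 0.46). Fabp7, the brain carrier, ran from 7.72 to 10.63 in shRNA OS and from 7.69 to 8.72 in Cre:lox OS (0.67, SE 0.53).

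Counting the family lists, 92 of 102 listed pathway genes were measured. None passed limma's adjusted test by model, site, Rb genotype or interaction. The models did not overlap for 10.9% of the 92 (5.44% of all genes), with 3 higher and 7 lower in shRNA OS. The sites did not overlap for 5.43% (2.6% of all genes), with 2 higher and 3 lower in tibial tumours. The pathway and cell type lists were chosen with earlier results of these data known, so nothing is read from their shares and counts. Among other adipogenic regulators (17 measured), 11 were higher and 6 lower on average in shRNA OS. The coactivator Ppargc1a was 6.51, 6.04, 6.81 and 6.35 in shRNA OS, against 5.97, 5.84, 5.67 and 5.67 in Cre:lox OS (0.64, SE 0.18), and all of these values are below the array medians. Gata2, which restrains fat cell formation, differed by 0.44 (SE 0.25). By site, Klf4, a regulator upstream of Cebpb, differed by -0.67 (SE 0.20) without overlap, and Zfp467 by -0.55 (SE 0.16).

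Over all genes, 48.1% had a lower mean in shRNA OS and 55.5% a lower mean in tibial tumours. In fatty acid uptake and activation 8 of 11 were lower, with a median of -0.12 and with 3 not overlapping. These were the caveolar protein gene Cav1 (-1.26, SE 0.33), the acyl-CoA synthetase gene Acsl5 (-0.44) and the transporter gene Slc27a4 (-0.25), and Acsl4 differed by -0.69. Of 13 genes of triglyceride synthesis, storage and lipolysis 7 were lower, with a median of -0.13. Their mean level per tumour was 8.82, 8.29, 8.70 and 8.89 in shRNA OS, against 8.88, 8.93, 8.76 and 8.84 in Cre:lox OS. The lowest was shRNA OS replicate 2, whose array was less like the rest. Plin2, which was also among the genes most like Fabp5, was 10.51, 9.88, 10.20 and 9.98 in shRNA OS, against 10.91, 11.22, 11.47 and 11.14 in Cre:lox OS (-1.04, SE 0.18). Agpat2, an enzyme of triglyceride synthesis, differed by -0.91 (SE 0.27). In mitochondrial and peroxisomal oxidation 11 of 13 were lower, with a median of -0.20. Acadl had the largest difference of them (-0.54), Hadha did not overlap by model (-0.30), and Acads did not overlap by site (-0.27).

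In fatty acid synthesis and desaturation 8 of 12 were lower in shRNA OS, with a median of -0.24, led by Scd1 (-1.04, SE 0.48) and Me1 (-0.82), and the desaturase gene Fads1 did not overlap (-0.73). Acly and Acaca, which make and commit the precursors, went the other way and did not overlap (0.30 and 0.26). The mean level of the 12 genes was 10.65, 9.46, 10.04 and 9.95 in shRNA OS, against 10.14, 10.44, 10.25 and 10.32 in Cre:lox OS. The lowest was shRNA OS replicate 2 and the highest shRNA OS replicate 1. Among partners of the lipase and lipoprotein receptors 7 of 9 were lower, with Angptl4, an inhibitor of Lpl, at -0.96 (SE 0.53) and Lipg at -0.61. Single tumours set both: Angptl4 was 7.63 in shRNA OS replicate 2 and at least 9.33 elsewhere, and Lipg was 7.72 in Cre:lox OS replicate 4 and between 5.23 and 5.98 elsewhere. By site, Apoe (1.55, SE 0.42) and the transporter gene Slc27a3 (-1.03, SE 0.28) did not overlap, and Vldlr differed by -0.84. Of the 13 triglyceride genes 12 had lower means in tibial tumours, with a median of -0.23, led by Mgll (-0.46) and Bscl2 (-0.40). Mgll was 10.20 in Cre:lox OS replicate 2 and at most 9.04 elsewhere.

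Adipocyte markers differed little by site or model on the median. Of 11 measured, 8 were below the array median in every tumour: Adipoq, Plin1, Cidec, Cidea, Lep, Retn, Adig and Ucp1. This also held for 36.1% of all genes, and a probe's level against the array median does not give a gene's abundance. Adipoq, the adiponectin gene, lay between 5.15 and 5.94 over the 8 tumours. Signal over background was not analysed here, so whether these genes were detected is unknown. By site the median difference of the 11 was -0.05, and Plin4 alone did not overlap (-0.27, SE 0.14), with Cidec at -0.23. By model the median was 0.05, and Car3, a carbonic anhydrase of fat and muscle, did not overlap. It was 12.99, 13.12, 12.84 and 13.40 in shRNA OS, against 12.50, 10.64, 12.74 and 11.14 in Cre:lox OS (1.33, SE 0.43). Slc2a4, the insulin-responsive glucose transporter of fat and muscle, differed by -0.60 (SE 0.25).

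**Figure D5:**
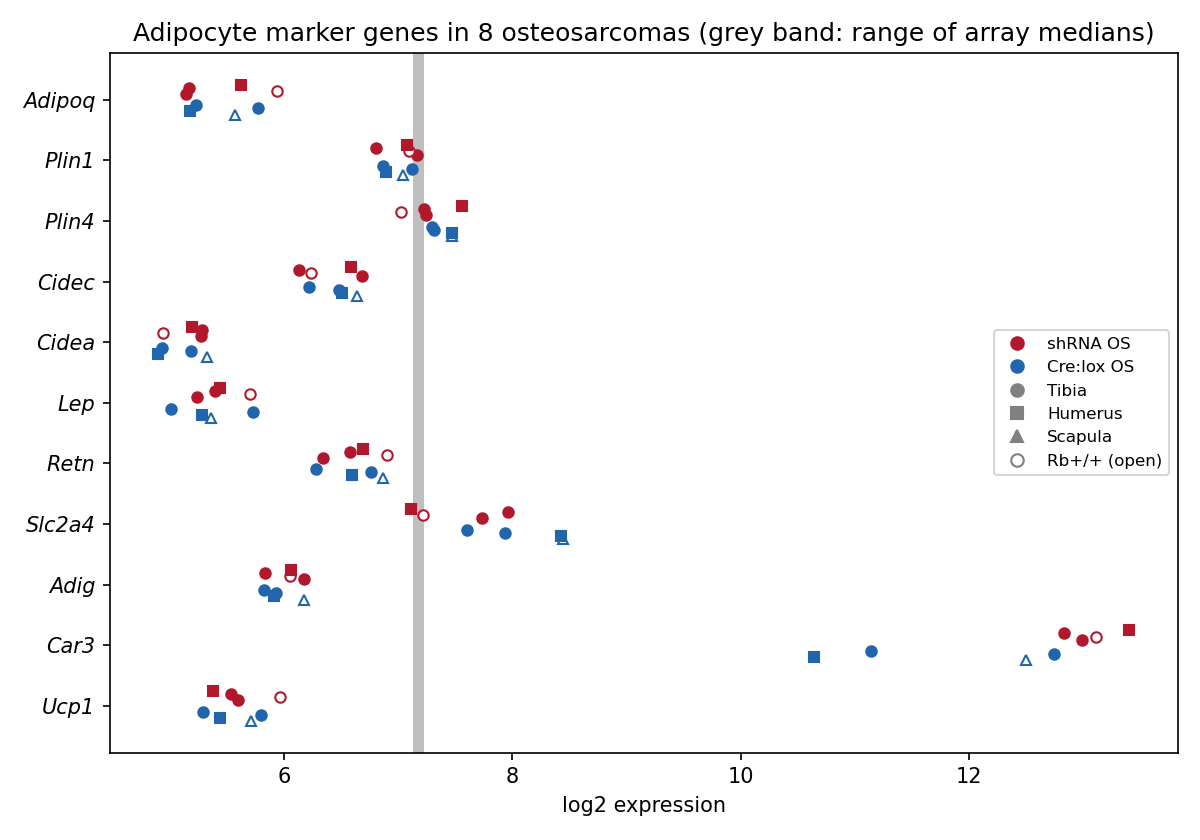
Log2 expression of 11 adipocyte marker genes in shRNA OS tumours (red, upper row of each gene) and Cre:lox OS tumours (blue, lower row), 1 point per tumour, with the grey band giving the range of array medians (7.13 to 7.23). Of the 11, 8 stay below the median of each array, Slc2a4 and Plin4 lie near or above it, and Car3 lies far above.

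Markers of other cells also differed on average by site and by model, but none passed limma's adjusted test. Their part in the results was not tested. Because the samples are whole tumours, fewer cells of a type and less RNA per cell cannot be told apart. By site, all 8 osteoclast genes had lower means in tibial tumours (Oscar -1.82, Ocstamp -1.66), with a mean log2 level per tumour of 8.65 to 11.57 in tibial tumours and 11.18 to 11.38 in the others. Macrophage genes had higher means in tibial tumours in 12 of 14 (Adgre1 1.64, C1qc 1.41), with mean levels of 9.18 to 10.57 in tibial tumours and 8.70 to 9.72 in the others. Skeletal muscle genes were higher in 14 of 14 (Myl1 1.43, Mb 1.03), with 7.32 to 10.46 in tibial tumours and 7.78 to 10.09 in the others. Osteoblast genes were lower in 5 of 5 measured (Dlx5 -0.97, Alpl -0.45), with 11.28 to 12.14 in tibial tumours and 11.98 to 12.21 in the others. Of the 8 osteoblast genes listed, Bglap, Runx2 and Spp1 had no probe set named for them alone.

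By model, the means of 13 of 14 macrophage genes were lower in shRNA OS (Msr1 -1.55, Itgam -1.03). Their mean level was 8.70 to 10.26 in shRNA OS and 9.34 to 10.57 in Cre:lox OS. Skeletal muscle genes were lower in 14 of 14 (Myl1 -1.82, Myh1 -1.27), with 7.32 to 10.46 in shRNA OS and 7.78 to 10.29 in Cre:lox OS. Endothelial genes were higher in 9 of 11 (Tek 1.01, Cldn5 0.73), with 9.18 to 9.70 in shRNA OS and 8.75 to 9.70 in Cre:lox OS. Osteoblast genes were higher in 4 of 5 measured (Dlx5 1.20, Sp7 0.54), with 11.92 to 12.21 in shRNA OS and 11.28 to 11.99 in Cre:lox OS. Of 10 measured B cell genes, 7 were higher (Vpreb3 0.30), with Blnk at -0.47. Their mean level was 6.02 to 6.32 in shRNA OS and 6.01 to 6.29 in Cre:lox OS.

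Marrow stromal genes were split by model, with 3 of 6 higher in shRNA OS (Foxc1 1.11, Kitl 0.69), and by site, with 3 of 6 lower in tibial tumours (Foxc1 -0.73, Il7 -0.71). Smooth muscle and pericyte genes were also split, 4 of 8 each way by model (Acta2 1.44, Des -1.37) and by site (Des 1.17, Cspg4 -0.91). Endothelial genes were lower in tibial tumours in 10 of 11 (Robo4 -0.49), with Vwf at 0.40. B cell genes were split by site, with 5 of 10 lower in tibial tumours. Their largest site differences were upward (Blnk 0.66, Cd79b 0.46). Osteoclast genes were higher in shRNA OS in 6 of 8, with Oscar at 0.63 (SE 0.93) and Acp5 at 0.19.

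shRNA OS replicate 1 had the highest Lpl, Cd36, Cebpa and Fabp5 of its model and the lowest Ebf1. It also had the lowest mean osteoclast level (8.65) of all 8 tumours and the highest mean macrophage level (10.26) of its model. shRNA OS replicate 4, from the humerus, had the highest Pparg and Ebf1 of all 8 tumours, the lowest Fabp5, and the lowest mean macrophage level (8.70). Cre:lox OS replicate 3, from the tibia, had the lowest Pparg, Fabp4 and Ebf1 of all 8, the highest Fabp5, and the highest mean macrophage level (10.57). The scapula tumour had the highest Fabp4 and Ebf2 of all 8. Its mean macrophage level was 9.34 and its Fabp5 9.28. Over all 8 tumours the mean macrophage level had r = 0.72 with Fabp5, -0.88 with Ebf1 and -0.53 with Pparg. The tumours share models and sites, and what lies behind these values was not tested.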

How the data were processed

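The authors deposited log2 expression values from 1-colour arrays. Per the submitters' processing notes these were made with RMA, which corrects background, normalizes by quantiles and summarizes probes, and the build mm9 is named. The deposited arrays still differ in interquartile range, as given above. No source used here gives the RMA version or any filter. GEO's platform annotation named the probe sets: 21789 of 35556 had 1 gene symbol and were used, 1621 had several and 12146 none. The probe set of highest mean over the 8 arrays stood for a gene.

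Groups came from the labels, and nothing there pairs the tumours. The titles number the tumours separately, so each was taken as a separate sample. Limma's p-values weigh a mean difference against the variation between tumours, moderated over all genes. Tests used limma 3.58.1 in R 4.3.3 (lmFit, eBayes) on all 19938 genes, with Benjamini-Hochberg adjustment, a threshold of 0.05 and no filter on dim genes. The model comparison had no covariate, those of site and Rb genotype had the model, and the interaction had model and site. The procedure was tested on simulated data. The number of arrays limits the precision.

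The 10 genes, 10 pathway lists and 9 cell type lists were chosen with earlier results of these data known. The genes named are the 10, their families, the 2 of largest difference by model and by site in each other list, the member of smallest p per direction for Rb genotype, and the 5 genes most correlated with Pparg, Fabp5 and Ebf1. The ranking by correlation left out symbols ending in Rik, symbols starting with Gm or LOC, and Xist. Listed genes whose groups did not overlap by model or by site are also named, after their values were seen. Listed genes not named among the measured are not analysed here. RefSeq's gene table (GRCm38.p6) gave only the order of neighbouring genes. Alternatives were quantile normalization, median centring, a filter at the 25th percentile of level, the mean of probe sets, eBayes with trend and robust, other covariates, and leaving out each tumour.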

Additional observations from a re-analysis of the deposited data

Results flagged for a closer look

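For each of the 10 genes in each model, the most distant of the 4 tumours was set against the other 3 by Dixon's criterion, which divides its distance from the closest of them by the range of all 4. This held in 2 of 20 such groups, and chance gives about 1 in 20. Fabp4 in shRNA OS replicate 4, from the humerus, was 9.81, against 9.24 to 9.29 in the 3 tibial tumours of that model. Cebpb in Cre:lox OS replicate 4 was 8.30, against 8.45 to 8.47 in the other 3, a distance smaller than the range within shRNA OS (7.50 to 8.32).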

How the results depend on the processing

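The number of the 10 genes past the adjusted threshold by model was 0. It became 1, Fabp5, with site as a covariate, and ranged from 0 to 1 when single tumours were left out (1, Fabp5, without replicate 1 of either model). Fabp5 was chosen with its model difference known, so these counts are descriptions and support nothing. By site, by Rb genotype and for the interaction it stayed at 0 under every alternative run; the interaction could not be fitted without shRNA OS replicate 4. The number of genes whose models do not overlap was 1 (Fabp5). It was 2 with median centring (Cebpb added), 2 among Rbfl/+ tumours (Ebf1 added) and 4 among tibial tumours (Cebpb, Ebf1 and Ebf2 added), the last 2 settings chosen after seeing the data. It ranged from 1 to 3 when single tumours were left out, with Cd36 and Ebf1 added without shRNA OS replicate 1. Pparg and Fabp4 did not overlap by site under each of the alternatives run for that count, which was 2 and ranged from 2 to 3 when single tumours were left out. Of 270 recomputed differences of the 10 genes, 4 moved by more than the residual SD: Fabp5 by site without a covariate (-0.09), and within shRNA OS the site differences of Cebpa (-0.29), Lpl (0.33) and Ebf2 (0.46). No paired analysis was possible because the labels give no replicate number shared between the models.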

Other observations

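Beside Angptl4, Lipg and Mgll, other lipid genes outside the 10 stood apart in 1 tumour. Fabp7 was 10.63 in shRNA OS replicate 3 and at most 9.38 elsewhere. Rxrg, the retinoid X receptor gene of muscle and brain, was 8.27 in Cre:lox OS replicate 2, from the humerus, and at most 7.05 elsewhere. No explanation was tested for these values.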
